A study of Mus musculus with 8 samples.

Results

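The genes described here are 32 naive and core pluripotency genes, read from RNA-seq of 8 mouse induced pluripotent stem cell (iPSC) clones. They were chosen by name from the network that maintains embryonic stem cells with earlier results of these data known, and each was represented by the RefSeq record of its symbol with the highest mean count. All 32 were found among the 21427 symbols of the table, and 31 passed the filter of 5 reads in no fewer than 4 of the 8 libraries and were tested among 16235 records. The member that did not pass is Esrrb. The study asked whether PIWI proteins, which bind piRNAs and silence transposons in the germ line, are needed to reprogram fibroblasts and to keep iPSCs pluripotent. TKO clones lack Miwi, Mili and Miwi2, and clones 35, 37, 47 and 48 were sequenced. Ctrl clones 33, 34, 41 and 43 come from littermates. The study's figure legends describe these as wild type or heterozygous for these genes, and its methods as triple heterozygotes. All clones were made from mouse embryonic fibroblasts of a mixed background with an Oct4-GFP reporter, using retroviruses for OCT4, SOX2, KLF4 and c-MYC. They were grown in serum medium with LIF, with colonies picked onto inactivated embryonic fibroblast feeders, and are labelled as below passage 10. Each library is 1 clone. The embryo of each clone is not given in the sources used here, so a p-value below measures the spread between these clones, some of which may share an embryo. Clone numbers lie in the thirties or the forties, with 2 TKO and 2 Ctrl clones in each series. What the numbers mean is not given in the sources used here, and the series were compared because the clones divide in this way.

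Pluripotent cells are held in their state by a core of transcription factors, chiefly the POU factor encoded by Pou5f1 (OCT4), the HMG-box factor SOX2 and the homeodomain factor NANOG, which bind one another's genes and many shared targets. In mouse cells of the naive state, the state of the preimplantation epiblast, a further set of factors downstream of LIF and WNT signals, among them KLF2, KLF4, ESRRB, TFCP2L1, TBX3 and PRDM14, sustains the core. Genes such as Zfp42 (Rex1), Dppa3 (Stella) and Fbxo15 are used as markers of this state because they are lost when cells differentiate.

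Libraries held between 24593995 and 52457455 counts in TKO clones, against 8983203 to 24688324 in Ctrl clones, and were divided by size factors between 0.369 and 2.07 to give the normalized counts used below. The deepest libraries were those of TKO 35 and TKO 37 and the shallowest that of Ctrl 33, so depth was not balanced within the thirties. Miwi (Piwil1), most of whose reading frame is replaced in the mutant allele, had 2.41 to 4.53 normalized counts in TKO clones, against 8.13 to 28.8 in Ctrl clones. These values rest on few reads, 19 over all TKO libraries and 45 over all Ctrl libraries. Mili (Piwil2), whose allele deletes only some of the exons, had 3845 to 10084 normalized counts in TKO clones, against 758 to 1028 in Ctrl clones, and its level does not check the label. Values of Miwi2 (Piwil4) are not given here, and the study reported its transcript as raised in TKO iPSCs. The 15 fibroblast and feeder genes, led by Fn1 and the collagens Col1a1 and Col1a2, summed to between 69586 and 118010 normalized counts in TKO clones, against 104170 to 174480 in Ctrl clones. In the forties these sums were 113260 and 118010 in TKO 47 and TKO 48, against 104170 and 116770 in Ctrl 41 and Ctrl 43. In the thirties they were 81388 and 69586 in TKO 35 and TKO 37, against 174480 and 119150 in Ctrl 33 and Ctrl 34. In RNA from whole cultures, fewer cells of a type and less RNA per cell cannot be told apart.

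The labelled cell type was borne out by the defining markers, with 1 exception. Pou5f1, Sox2, Nanog, Zfp42 and Dppa5a were read at high counts in every clone, and Esrrb was not. The 32 genes took 1.2 to 1.34% of the counts of TKO libraries, against 1.15 to 1.46% of those of Ctrl libraries. On the scale of normalized counts per kilobase of record, which allows levels of different genes to be compared, Dppa5a was the highest member in all 8 clones, with a mean over clones of 109132 and a range of 73201 to 136904. Spp1 ranked 2 in every clone, with a mean of 27859 normalized counts per kilobase, and Pou5f1 ranked 3 in every clone, with a mean of 16033. Mybl2 followed with a mean of 8037 and Nanog with a mean of 7212 normalized counts per kilobase, and their ranges overlapped, from 7288 to 8847 for Mybl2 and from 5483 to 10846 for Nanog. A further 23 members had means per kilobase between 5918 (L1td1) and 347 (Dppa4). The lowest tested members, Fut4, Tbx3 and Nr5a2, had means of 20.2, 8.77 and 4.07 normalized counts per kilobase and kept this order in every clone.

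**Figure D1:**
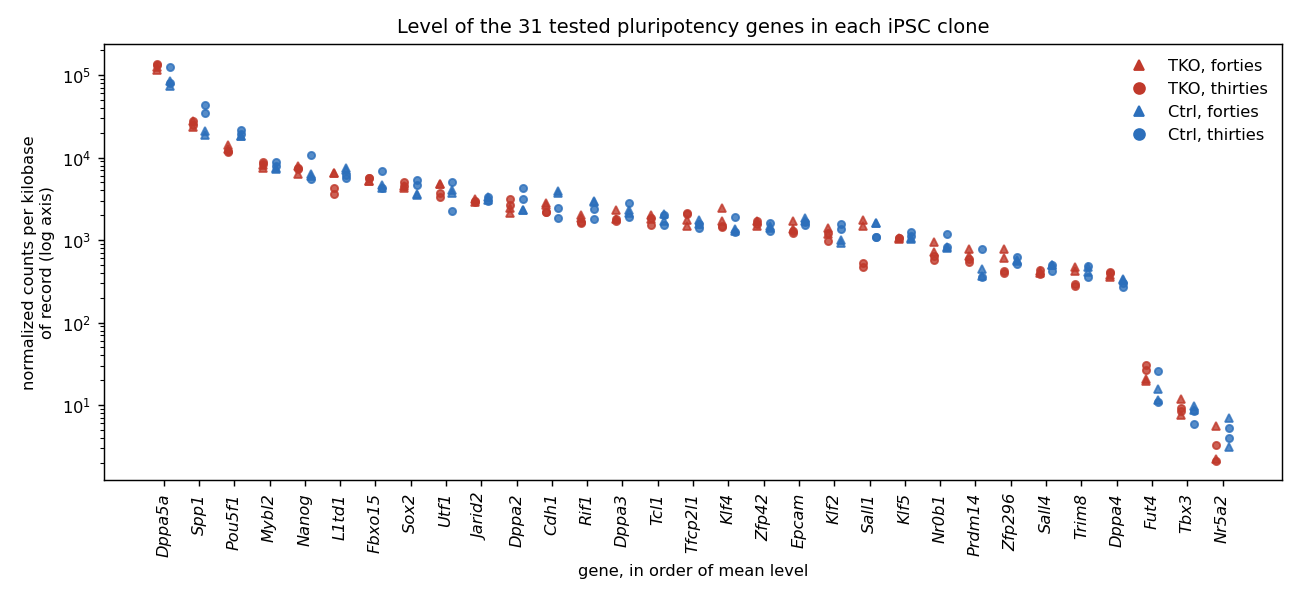
Normalized counts per kilobase of record (log axis) of the 31 tested genes in each clone, ordered by mean level, with TKO clones in red and Ctrl clones in blue, triangles for clones in the forties and circles for those in the thirties. The level ran from 109132 per kilobase for Dppa5a to 4.07 for Nr5a2, while the 8 points of most genes lay close together.

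Esrrb, an orphan nuclear receptor of the naive network, was read 0 to 3 times per library in the record used, and 0 to 2 times in its second record. Several lowly read members have more than 1 record in the table, as Esrrb, Nr5a2 and Tbx3 do. Over the whole table, the highest record of the 3175 symbols with several records had a median of 3.41 normalized counts per kilobase, against 39.0 for the 18252 symbols with a single record. Sall4 and Dppa4 also have several records and were read at 947 to 4118 and 173 to 1258 counts in the record used. The part of record number in the counts of Esrrb, Nr5a2 and Tbx3 was not tested. Reads that match several records could have been lost or divided, since the counting rule is not given in the sources used here, so the low counts of these 3 genes do not show that the genes were off. Pou5f1, Nanog and Dppa5a, which were highly read, have close copies elsewhere in the genome, such as processed pseudogenes. The table does not separate reads of such copies from those of the genes, and their part in these counts was not tested.

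Between TKO and Ctrl clones, 1 of the 31 tested members was called by edgeR at an adjusted p under 0.05, and it was lower in TKO clones. Over all records, 0.24% were called, 0.0862% higher and 0.154% lower. No member was called higher by edgeR, DESeq2 or limma-voom, and at an unadjusted p under 0.05, which 14.8% of all records passed, edgeR gave 2 higher (Dppa4, Dppa5a) and 4 lower (Pou5f1, Sall4, Epcam, Rif1). No called member reached the study's threshold of a 2.5-fold change, as 0.166% of all records did. The median log2 change of the members was -0.06, beside -0.01 over all tested records, and 0.01 without Ctrl 34 or without TKO 37. Of the members, 29 of 31 (93.5%) lay within 1.5-fold, beside 84.1% of all tested records. The 2 beyond it were Pou5f1 and Fut4. The other 30 members had adjusted p-values between 0.225 and 0.987 from edgeR, with standard errors of the log2 change between 0.08 and 0.41, and a p that misses the threshold does not show that a gene was the same in both genotypes.

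Of the core factors, Pou5f1 (mm9 chr17:35642982-35647721, plus strand) fell in TKO clones. It had 16013, 15866, 17235 and 19185 normalized counts in TKO clones 35, 37, 47 and 48, against 26294, 28971, 24772 and 24310 in Ctrl clones 33, 34, 41 and 43. Every TKO clone lay below every Ctrl clone, with the lowest values in TKO 35 and TKO 37 and the highest in Ctrl 34. The means were 17075 ± 1535 in TKO clones and 26087 ± 2102 in Ctrl clones (SD, n = 4 each), a log2 change of -0.61 with a standard error of 0.10, called by edgeR (adjusted p = 0.0380). A model that also held the clone series gave -0.61 again (adjusted p = 0.0101 from edgeR). The adjusted p of the genotype model ranged from 9.06e-06 (DESeq2) to 0.168 over the alternatives tried. When each clone was left out in turn, the call held only in the fit that left out TKO 48 (adjusted p = 0.0218 from edgeR), and in the other 7 fits the adjusted p was 0.0717 to 0.168, with log2 changes between -0.64 and -0.56. In the model with the series it was lost only without TKO 35 (0.0615) or TKO 37 (0.0566). The log2 change was -0.43 within the forties (adjusted p = 0.0539) and -0.79 within the thirties (adjusted p = 0.00267), both from edgeR. The difference between them, 0.36, was not called (adjusted p = 0.182). The retroviruses carried the Pou5f1, Sox2 and Klf4 coding sequences, which make up 78.6%, 39.1% and 47.9% of the main annotated transcripts of these genes, and counts per record do not separate transgene from endogenous transcripts. Their part in the change was not tested. The study, whose calls required a 2.5-fold change, named Oct3/4 among the factors that were not affected. It also found comparable levels of the Oct4-GFP reporter in TKO and Ctrl iPSCs by flow cytometry.

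Nanog and Sox2 were not called. Nanog had 10069, 9750, 8610 and 10825 normalized counts in TKO clones 35, 37, 47 and 48, against 7436, 14707, 8664 and 8173 in Ctrl clones 33, 34, 41 and 43. The genotypes overlapped, with 3 of the TKO clones between the single high value of Ctrl 34 and the other Ctrl clones. Nanog had a log2 change of 0.01 (standard error 0.20) and Sox2 one of 0.10 (standard error 0.13). Without Ctrl 34 these were 0.28 (standard error 0.10) and 0.22 (standard error 0.12), neither called by edgeR (adjusted p = 0.263 and 0.370). Sall4, a zinc-finger factor that acts with OCT4, was among the 3 steadiest members, at 2213, 1988, 2007 and 2167 normalized counts in TKO clones, against 2565, 2164, 2530 and 2534 in Ctrl clones, in the same clone order. Only Ctrl 34 fell into the range of the TKO clones, and edgeR did not call the log2 change of Sall4, -0.23 (standard error 0.09, adjusted p = 0.313).

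The promoters of Pou5f1 and Nanog are printed because the network is wired through such sites and because Pou5f1 is the member that fell. The RefSeq promoter table for GRCm38.p6 held 20 of the 32 genes with 28 start sites, out of 32851 start sites of all genes. Both sequences give the 250 bases before the first annotated start, 5′ to 3′ on the gene's strand, at chr17:35505782-35506031 (plus) for Pou5f1 and chr6:122707239-122707488 (plus) for Nanog.
Pou5f1: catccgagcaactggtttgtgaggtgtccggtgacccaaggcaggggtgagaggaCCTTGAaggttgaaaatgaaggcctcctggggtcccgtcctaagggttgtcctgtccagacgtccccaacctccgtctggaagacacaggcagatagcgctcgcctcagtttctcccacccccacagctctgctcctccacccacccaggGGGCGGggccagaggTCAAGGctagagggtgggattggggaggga
Nanog: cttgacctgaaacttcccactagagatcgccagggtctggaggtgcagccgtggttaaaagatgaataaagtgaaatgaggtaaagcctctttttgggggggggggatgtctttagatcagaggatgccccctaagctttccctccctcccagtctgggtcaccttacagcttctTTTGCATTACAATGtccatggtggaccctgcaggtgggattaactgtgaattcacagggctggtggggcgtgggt
Capitals mark matches, on either strand, to any of 4 motifs that do not overlap here. They are the nuclear receptor half-site TCAAGG, the GC box GGGCGG, the octamer ATGCAAAT and the composite Oct-Sox element, which is TTTGCAT and ACAATG with any 1 base between them. The Pou5f1 window holds the half-site 195 to 190 bases before the start on the minus strand and again at 30 to 25, and the GC box at 45 to 40. The Nanog window holds the composite element 75 to 62 bases before the start. Of all 32851 windows, 0.00609% held the composite element in this exact form, namely the 2 windows of the Nanog start sites. The form equals the Nanog stretch outside the spacer, so elements that differ from it by 1 base were not counted. Its absence from other windows does not show that they lack such an element. The octamer was in 1.6% of all windows and in those of Spp1, Zfp296 and Zfp42 among the members. The half-site was in 12.5% of all windows and in those of Pou5f1, Tcl1, Zfp296 and Zfp42. The GC box was in 32.7% of all windows and in those of 12 of the 20 members with an entry. A match describes the letters in these windows and was not tested as a site.

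The naive factors held none of the calls between the genotypes. Their 8 tested members had log2 changes between -0.55 and 0.40 with a median of 0.06. Prdm14, a PR-domain protein that restrains FGF signalling and DNA methylation, had 1524, 1424, 1670 and 2047 normalized counts in TKO clones, against 918, 2004, 1162 and 962 in Ctrl clones. The TKO clones stood above 3 of the 4 Ctrl clones, and Ctrl 34 stood among them, with a log2 change of 0.40 (standard error 0.24). Without Ctrl 34 the change of Prdm14 was 0.71 (standard error 0.15) and was not called. Without this clone and with the series in the model it was 0.76 and was called (adjusted p = 0.0131 from edgeR). With all clones that model gave an adjusted p of 0.318 from edgeR. Of the 13 settings tried for that model, this was the only 1 in which Prdm14 was called. Nr5a2, a nuclear receptor that binds the Pou5f1 promoter, was barely read, at 11.9, 7.72, 8.01 and 20.5 normalized counts in TKO clones, against 19.0, 14.4, 11.4 and 25.5 in Ctrl clones. The 2 ranges overlapped, and its log2 change of -0.55 had a standard error of 0.41. Klf5, a Krüppel-like factor that overlaps with KLF2 and KLF4 in function, ranked 2 among the steadiest members. It had 1840, 1828, 1786 and 1829 normalized counts in TKO clones, against 2172, 1958, 1809 and 1799 in Ctrl clones, a log2 change of -0.09 (standard error 0.09).

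Among the markers, Dppa5a, whose RNA-binding product is abundant in pluripotent cells, came closest to a call in the upward direction. It had 88577, 85038, 73705 and 82062 normalized counts in TKO clones 35, 37, 47 and 48, against 52545, 79966, 55614 and 47361 in Ctrl clones 33, 34, 41 and 43. Ctrl 34 alone reached the range of the TKO clones. Its log2 change was 0.48 by genotype alone (standard error 0.15) and 0.49 with the series in the model, and edgeR called neither (adjusted p = 0.232 and 0.0525). Without Ctrl 34 the log2 change was 0.67 and was called (adjusted p = 0.0455 from edgeR), the lowest adjusted p in the range of 0.0455 to 0.525 over its alternatives. Without Ctrl 34, Pou5f1 was not called, so that the count of 1 called member stood for a different gene. Utf1, a chromatin-bound factor of undifferentiated cells, was among the 5 most variable members, with 4367, 3898, 5499 and 5528 normalized counts in TKO clones, against 5940, 2612, 4662 and 4358 in Ctrl clones. The TKO values lay inside the Ctrl range, which ran from Ctrl 34 at the bottom to Ctrl 33 at the top. Dppa4, a SAP-domain partner of DPPA2, was the only member besides Pou5f1 whose genotypes did not overlap. In the record used, it lay between 547 and 621 normalized counts in TKO clones, against 413 to 523 in Ctrl clones (log2 change 0.30, adjusted p = 0.317 from edgeR). Its second record, read 5 to 143 times per library, did not separate the genotypes. There TKO 48 had 16 reads, against 21 in the shallower library of Ctrl 34. Over all records, 8.33% had genotypes that did not overlap, and 2 of 31 members did.

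Of the surface genes, Fut4, a fucosyltransferase of the kind that makes the SSEA1 epitope, had the largest absolute log2 change of any member. The change was 0.63 (standard error 0.31) and was not called. Fut4 lies on mm9 chr9:14552903-14556566 (minus strand), and its distance from the targeted Piwi genes was not examined. It was lowly read, with 97.9, 111, 76.1 and 71.8 normalized counts in TKO clones, against 94.8, 40.3, 58.2 and 42.8 in Ctrl clones. Only Ctrl 33 reached into the TKO range. Of the factors with a broader role, Mybl2, a cell-cycle transcription factor, had 32500, 30838, 29763 and 27980 normalized counts in TKO clones, against 32752, 29236, 26979 and 27972 in Ctrl clones. Jarid2, a subunit of Polycomb repressive complex 2, was the steadiest member, with 14222, 14742, 14283 and 15516 in TKO clones, against 14508, 16287, 16232 and 14960 in Ctrl clones. For Mybl2 and Jarid2 the genotypes overlapped and the log2 changes were 0.05 and -0.08, each with a standard error of 0.09 or 0.08. Spp1, the secreted phosphoprotein osteopontin, had 38745, 35119, 33435 and 39391 normalized counts in TKO clones, against 49015, 62028, 30004 and 26515 in Ctrl clones. The TKO clones lay between the Ctrl clones in the thirties, which were higher, and those in the forties, which were lower.

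Rif1, a protein of replication timing and telomeric chromatin, was called once the series was in the model. It lies on mm9 chr2:51928357-51977903 (plus strand) and had 13909, 13618, 15924 and 17080 normalized counts in TKO clones 35, 37, 47 and 48, against 15529, 20299, 24719 and 25492 in Ctrl clones 33, 34, 41 and 43. Only Ctrl 33 lay within the range of the TKO clones, and within each series both TKO clones lay below both Ctrl clones. By genotype alone Rif1 had a log2 change of -0.51 (standard error 0.15), which edgeR did not call (adjusted p = 0.225). With the series in the model the change was -0.49 (standard error 0.10), which it called (adjusted p = 0.0252). With the series in the model, 2 members were called, Pou5f1 and Rif1, both lower in TKO clones, which is 2 of 31 beside 5.7% of all records (2.6% higher, 3.1% lower). The count rested on single clones. It was 0 without TKO 35 or TKO 37, where Pou5f1 and Rif1 both missed the threshold, 1 (Pou5f1) without TKO 47, Ctrl 41 or Ctrl 43, 4 without TKO 48 and 5 without Ctrl 34. The adjusted p of Rif1 in this model lay between 0.000505 and 0.0875 over its alternatives. No member was called higher with edgeR, 1 (Dppa5a) with DESeq2 and 1 (Dppa5a) with limma-voom, and an unadjusted p under 0.05 was reached by 3 higher and 6 lower members, beside 25.5% of all records in either direction.

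**Figure D2:**
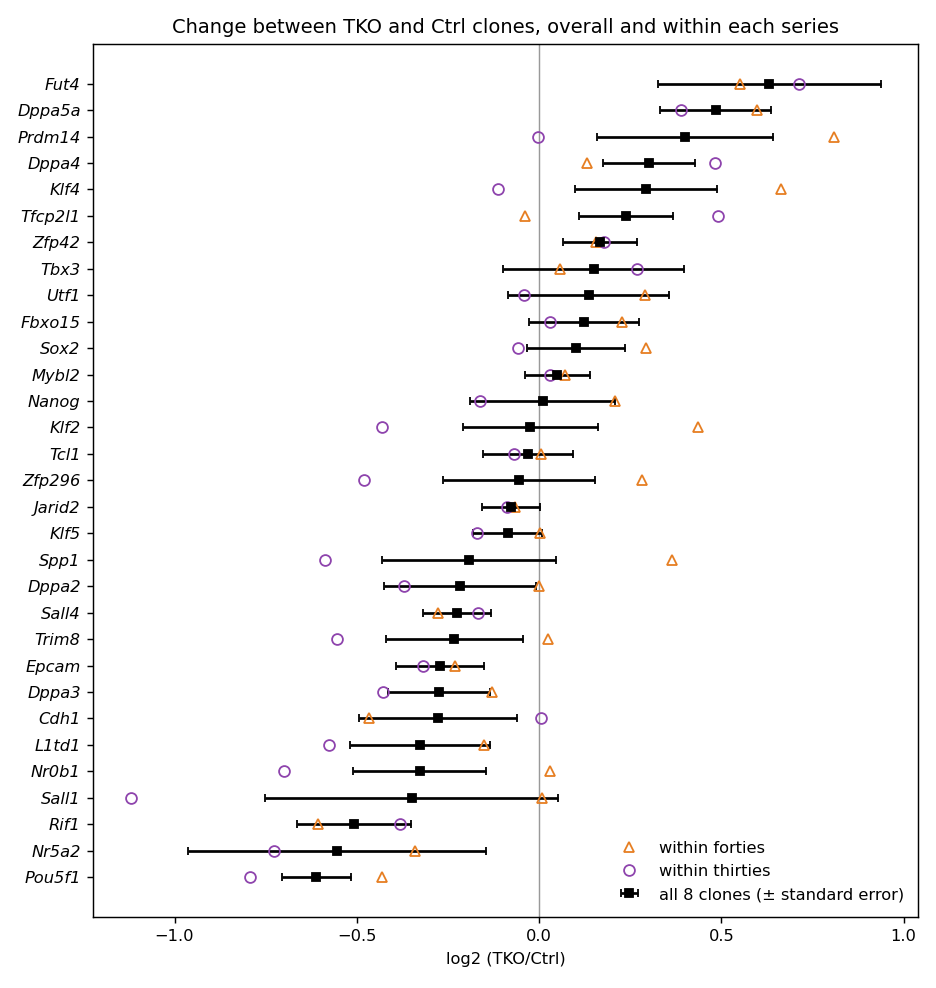
Log2 change between TKO and Ctrl clones (TKO over Ctrl) of each tested gene, with squares and bars for the estimate over all 8 clones ± its standard error, and open triangles and circles for the changes within the forties and the thirties. Pou5f1 lies lowest at -0.61 and Fut4 highest at 0.63, and the circle of Sall1 at -1.12 is far from its triangle at 0.01.

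The remaining 14 members, Sox2, Klf2, Klf4, Tfcp2l1, Tbx3, Nr0b1, Zfp42, Zfp296, Dppa3, Dppa4, Fbxo15, Tcl1, Epcam and Trim8, had log2 changes between TKO and Ctrl clones from -0.33 to 0.30. Their adjusted p-values ran from 0.317 to 0.967 with edgeR, which called none of the 14 for genotype, with or without the series, for series or for their interaction. Between the series, DESeq2 and limma-voom called Sox2, lower in the forties, which edgeR did not call (adjusted p = 0.0523) except under TMM scaling, with no filter or without TKO 48, and for the interaction DESeq2 called Klf2 and Zfp296. Their SD between clones of a genotype, on the log2 scale and averaged over the genotypes, was 0.12 to 0.32.

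More members differed between the clone series than between the genotypes. With the genotype in the model, edgeR called 5 of 31 between the forties and the thirties, 4 of them higher in the forties (Sall1, Cdh1, L1td1, Rif1) and 1 lower (Dppa2). Over all records 19.4% were called, 9.84% higher and 9.56% lower, so the share of the members was no larger than that of the table. The series did not overlap in 5 members (Sall1, Cdh1, L1td1, Dppa2, Sox2), beside 16.1% of all records. The count of calls was 3 without TKO 37, Ctrl 41 or Ctrl 43, each time Sall1, Cdh1 and L1td1, and 8 without Ctrl 33.

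Sall1, a zinc-finger repressor related to SALL4 that is better known from kidney development, changed most. It lies on mm9 chr8:91551147-91568061 (minus strand) and had 7920 and 9166 normalized counts in the forties clones TKO 47 and TKO 48 and 8408 and 8590 in Ctrl 41 and Ctrl 43, against 2818 and 2460 in the thirties clones TKO 35 and TKO 37 and 5697 and 5770 in Ctrl 33 and Ctrl 34. The 4 forties clones were alike in both genotypes, whereas in the thirties the TKO clones were far below the Ctrl clones. The log2 change of Sall1 between the series was 1.13 (standard error 0.20, adjusted p = 0.00593 from edgeR) and was called whichever clone was left out, between 0.96 and 1.27. Its genotype change was 0.01 within the forties and -1.12 within the thirties (adjusted p = 0.00155 from edgeR). The difference of 1.13 between these changes was called (standard error 0.15, adjusted p = 0.0197 from edgeR). Sall1 was the only member so called, 1 of 31 beside 1.3% of all records. That call was lost without TKO 35, TKO 37, Ctrl 41 or Ctrl 43 (adjusted p between 0.119 and 0.179). It was one of 1 to 8 calls without each of the other 4 clones, 8 without Ctrl 33, 6 without Ctrl 34, 3 without TKO 47 and 1 without TKO 48. DESeq2 called 4 members and limma-voom 2, Sall1 among them.

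L1td1, an RNA-binding protein derived from a LINE-1 element that pluripotent cells express, lies on mm9 chr4:98393425-98405171 (plus strand). It had 19216 and 19209 normalized counts in TKO 47 and TKO 48 and 20629 and 22044 in Ctrl 41 and Ctrl 43, against 10685 and 12689 in TKO 35 and TKO 37 and 16740 and 18085 in Ctrl 33 and Ctrl 34. All forties clones lay above all thirties clones, and the lowest values were again those of TKO 35 and TKO 37. Between the series L1td1 had a log2 change of 0.51 (standard error 0.10), which was called (adjusted p = 0.0102 from edgeR) and stayed so whichever clone was left out.

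The windows of Sall1 and L1td1 are shown as the 2 members called between the series that the promoter table holds. They give the 250 bases before the first annotated start at GRCm38.p6 chr8:89044163-89044412 (minus strand) for Sall1 and chr4:98726504-98726753 (plus strand) for L1td1, from RefSeq.
Sall1: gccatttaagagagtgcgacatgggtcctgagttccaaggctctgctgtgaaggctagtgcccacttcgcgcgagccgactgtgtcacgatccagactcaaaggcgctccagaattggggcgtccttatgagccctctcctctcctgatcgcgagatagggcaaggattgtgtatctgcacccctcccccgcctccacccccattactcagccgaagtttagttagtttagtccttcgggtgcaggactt
L1td1: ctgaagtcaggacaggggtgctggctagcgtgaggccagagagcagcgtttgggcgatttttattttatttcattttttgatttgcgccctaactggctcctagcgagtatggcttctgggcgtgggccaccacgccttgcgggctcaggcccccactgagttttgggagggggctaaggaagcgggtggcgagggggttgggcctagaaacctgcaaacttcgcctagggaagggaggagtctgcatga
Neither window matches any of the 4 motifs, so no letters are in capitals, although another start site of Sall1 has a GC box. Sall1's window holds 13 CpG dinucleotides and 56.4% G and C, that of L1td1 holds 11 and 57.6%, that of Pou5f1 8 and 62%, and that of Nanog 3 and 52%. The medians over the windows of the 20 genes were 11 CpG dinucleotides and 59.6% G and C, beside 6 and 52.4% over all windows.

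Cdh1, the epithelial cadherin that holds colonies together, lies on mm9 chr8:109127251-109194146 (plus strand). It had 12445 and 11748 normalized counts in TKO 47 and TKO 48 and 16235 and 17177 in Ctrl 41 and Ctrl 43, against 9560 and 9606 in TKO 35 and TKO 37 and 10892 and 8211 in Ctrl 33 and Ctrl 34. All forties clones lay above all thirties clones, by 0.57 on the log2 scale (standard error 0.12), a call of edgeR (adjusted p = 0.0112) that held whichever clone was left out. Rif1 was also higher in the forties, by 0.37 on the log2 scale (standard error 0.10), an edgeR call (adjusted p = 0.0247). It missed the threshold without TKO 35, TKO 37, Ctrl 41 or Ctrl 43 (0.0624 to 0.0698).

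Dppa2, a SAP-domain protein that acts on promoters of early embryonic genes, was the member that was lower in the forties. It lies on mm9 chr16:48310590-48319836 (plus strand) and had 4086 and 4809 normalized counts in TKO 47 and TKO 48 and 4436 and 4458 in Ctrl 41 and Ctrl 43, against 5173 and 6063 in TKO 35 and TKO 37 and 6116 and 8383 in Ctrl 33 and Ctrl 34. The series did not overlap, and Ctrl 34 stood far above the other thirties clones. Dppa2 had a log2 change of -0.52 (standard error 0.12), called at an adjusted p of 0.0190 from edgeR and not called without TKO 37, TKO 47, Ctrl 41 or Ctrl 43 (0.0536 to 0.0618).

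**Figure D3:**
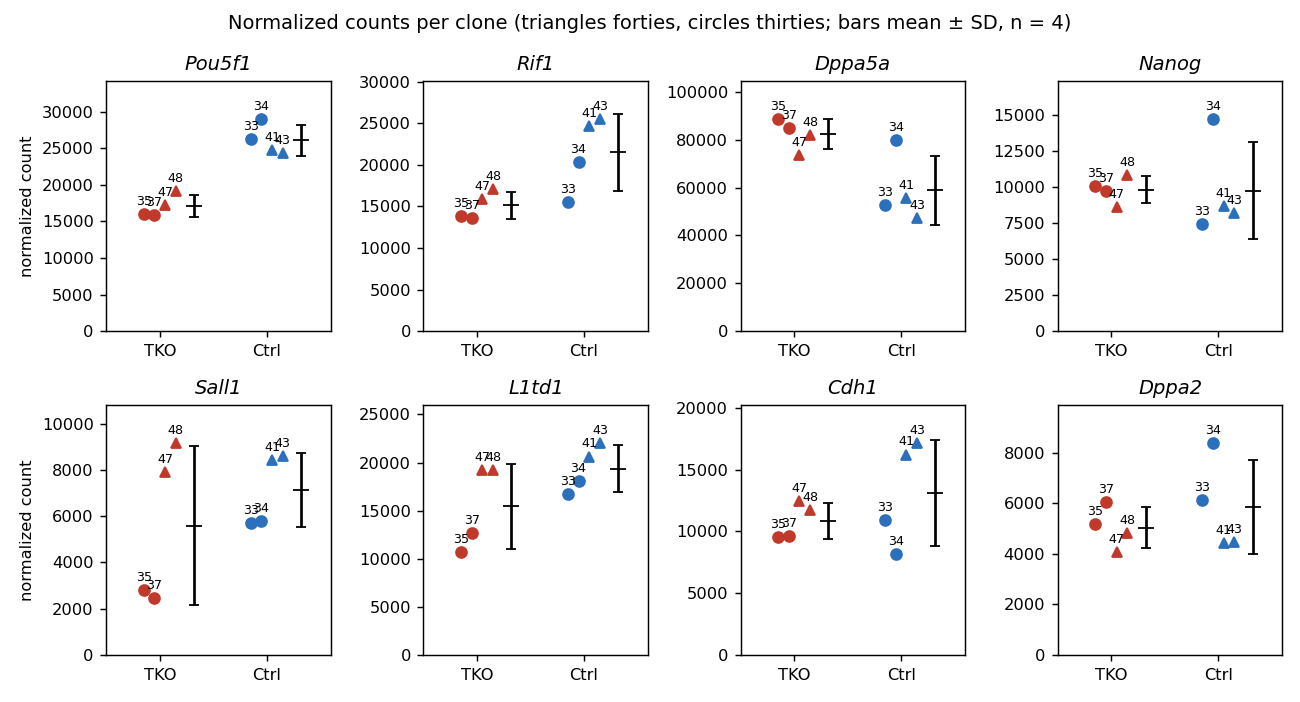
Normalized counts of 8 genes in each clone, with TKO clones in red, Ctrl clones in blue, triangles for the forties, circles for the thirties, clone numbers beside the points and bars for the mean ± SD of 4 clones. Pou5f1 is the gene of the 8 whose genotypes do not overlap, Dppa5a and Nanog show Ctrl 34 above the other Ctrl clones, and Sall1 and L1td1 are lowest in TKO 35 and TKO 37.

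Within a series, 1 member was called in the forties and 7 in the thirties. In the forties the 1 called member was Rif1 (-0.61, adjusted p = 0.0458 from edgeR), beside 1.98% of all records. No member was called higher in the forties by edgeR or limma-voom and 2 (Klf4, Dppa5a) were by DESeq2, beside 0.813% of all records with edgeR. Without adjustment, 6 higher and 4 lower members passed p under 0.05, as did 19.8% of all records. In the thirties 5 were lower in TKO clones (Sall1, Pou5f1, Nr0b1, Spp1, L1td1) and 2 higher (Tfcp2l1, Dppa4), beside 11.9% of all records (4.83% higher, 7.05% lower). The log2 changes in the thirties were -0.70 for Nr0b1, a nuclear receptor corepressor known as DAX1, -0.59 for Spp1, -0.58 for L1td1, 0.49 for Tfcp2l1, a grainyhead-like naive factor, and 0.48 for Dppa4. The members' median genotype change was 0.03 among forties clones and -0.16 among thirties clones. The difference between these changes was positive in 23 of 31 members (74.2%), with a median of 0.30, beside 51.7% and a median of 0.02 over all tested records. Without Ctrl 34 that median was 0.13 over the members, and with limma-voom 0.20. Beside these thirties values stand those of the 15 fibroblast and feeder genes, of which 12 fell in TKO clones of the thirties with a median log2 change of -1.20. In 6 of the 15 the genotype change was called higher in the forties than in the thirties, and in none lower. The part of such cells and of depth in the members' values was not tested.

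The spread between clones of one genotype varied widely among the members. The SD of the log2 normalized count, averaged over the genotypes, had a median of 0.29 over the 31 members, beside 0.31 over all tested records and 0.21 over the 9841 records averaging 100 normalized counts or more. The most variable members were Sall1 (0.66), Nr5a2 (0.56), Fut4 (0.43), Utf1 (0.37) and Prdm14 (0.37), and the steadiest Jarid2 (0.07), Klf5 (0.07) and Sall4 (0.10). The median SD was 0.20 in TKO clones and 0.28 in Ctrl clones, and it was larger in Ctrl clones in 21 of 31 members (67.7%), beside 53.4% of all records. Without Ctrl 34 the median SD of the members over the Ctrl clones was 0.16, and the SD exceeded that of the TKO clones in 16 of 31 members, beside a median of 0.24 and 44.2% over all records. Without Ctrl 33 the members' median was 0.19.

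Ctrl 34 was the highest Ctrl clone in 13 members and the lowest in 8, beside 28.6% and 29.7% of all records. It was farthest from the mean of the other 3 Ctrl clones, on the log2 scale, in Prdm14 (0.99), Utf1 (-0.92), Spp1 (0.87), Nanog (0.86) and Cdh1 (-0.82), followed by Dppa2 (0.76). In Nanog it had 14707 normalized counts, against 7436 to 8664 in the other Ctrl clones. In Prdm14 it had 2004 normalized counts, against 918 to 1162 in them, so 2 factors of the network were high in this clone. Utf1 was low in it, at 2612 against 4358 to 5940, and Cdh1 at 8211 against 10892 to 17177. The median absolute deviation of Ctrl 34 from the mean of the other 3 clones of its genotype was 0.29 over the members and 0.31 over all tested records. Those of the other Ctrl clones were 0.15 to 0.26 over the members and 0.22 to 0.30 over all records. Of the TKO clones, TKO 48 was the highest in 16 members and TKO 37 the lowest in 15, beside 33% and 20% of all records.

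**Figure D4:**
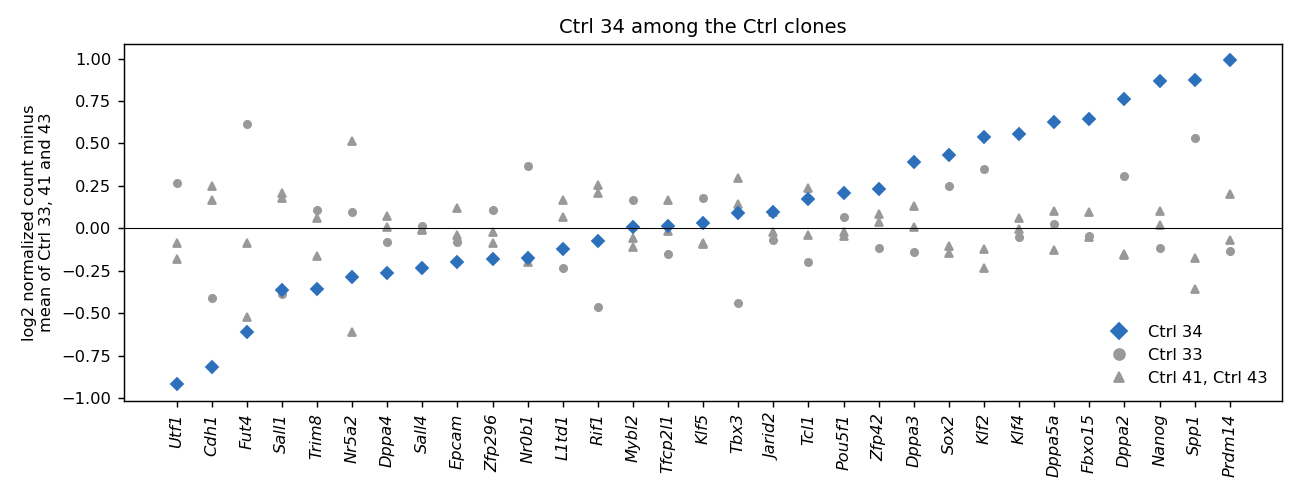
Log2 normalized count of each gene minus the mean of Ctrl 33, Ctrl 41 and Ctrl 43, with diamonds for Ctrl 34, circles for Ctrl 33 and triangles for Ctrl 41 and Ctrl 43. The diamonds run from -0.92 for Utf1 to 0.99 for Prdm14 and lie outside the other 3 clones at both ends.

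Other genes of the pluripotency network, 30 taken from a list with LIF pathway, chromatin and signalling genes, were compared in the same way. Between TKO and Ctrl clones none of the 29 tested was called by edgeR, DESeq2 or limma-voom, and 3 passed an unadjusted p under 0.05 with edgeR. With the series in the model edgeR called 6 of the 29, with Lin28a, Tdh, Zscan10, Hcfc1 and Rest lower in TKO clones and Zfp143 higher, beside 5.7% of all records. Between the series 14 of 29 were called, 7 higher and 7 lower in the forties, beside the 19.4% of all records. Those higher included Lin28a, which blocks let-7 processing, at a log2 change of 1.20, Zscan10 (0.86) and Tdh (0.81), a threonine dehydrogenase of mouse embryonic stem cells. Of 12 genes of the primed or formative epiblast, the state after implantation, 4 were higher in the forties and none lower (Fgf5, Otx2, Cdh2, Sox4). Fgf5, a growth factor that marks this state, had 220 and 186 normalized counts in TKO 47 and TKO 48 and 623 and 287 in Ctrl 41 and Ctrl 43, against 7.36 and 9.65 in TKO 35 and TKO 37 and 48.8 and 17.3 in Ctrl 33 and Ctrl 34. The log2 change of Fgf5 between the series was 4.25 (adjusted p = 0.000311 from edgeR). None of these 12 genes was called between the genotypes by edgeR, DESeq2 or limma-voom, and none passed an unadjusted p under 0.05 with edgeR. With the series in the model edgeR called Fgf5 lower in TKO clones (log2 change -1.36, adjusted p = 0.0477), limma-voom called none and DESeq2 called Fgf5, Cdh2 and Sox4. Some lists of other cell types also had genes higher in the forties by edgeR, beside 9.84% of all records. Those were 6 of 10 tested genes of primitive endoderm and 3 of 7 of mesoderm or primitive streak (and 1 lower, Hand1). The same held for 2 of 5 neural genes and 3 of 15 fibroblast or feeder genes. In the trophoblast list, none of 6 tested genes was higher and 2 were lower (Hand1, Gata3). The higher calls were thus not limited to epiblast genes, and not every list had them. The part of such cells in the series differences was not tested. The lists were chosen with earlier results of these data known.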

How the data were processed

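RNA from 8 iPSC clones was made into TruSeq libraries and read single-end for 50 cycles. The authors mapped reads to mm9 GenBank transcripts with BWA (0.7.5a in the submitters' processing notes) and deposited, for each RefSeq record, the unscaled count of reads in each library. The treatment of strand and of reads matching several records is not given in the sources used here. Of 27052 records, 26321 were named from a RefSeq gene table (GRCm38.p6, names only) and 731 were not. Positions came from GENCODE M1 on mm9, promoters from RefSeq.

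A record was kept when 4 or more libraries had 5 reads or more, after the study's filter, and counts were divided by median-ratio size factors. The main test was edgeR 4.0.16's quasi-likelihood F test (R 4.3.3) on genotype alone, with a call at a Benjamini-Hochberg adjusted p under 0.05 over all 16235 records. Further models added the series and its interaction with genotype. Log2 values per clone carry an offset of 0.5. Alternatives were TMM scaling, no filter, DESeq2 1.42.0, limma-voom (limma 3.58.1), counts summed per symbol and leaving out each clone. Values in every clone are given for called members, the 5 highest per kilobase, the 5 most and 3 least variable, the 5 largest genotype changes, the 5 in which Ctrl 34 was farthest out, and members below the filter. Of the other lists, called genes could be named. The members and lists were chosen with earlier results of these data known.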

Additional observations from a re-analysis of the deposited data

Results flagged for a closer look

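In 6 of the 62 groups of 4 clones checked, that is the TKO and the Ctrl clones of each of 31 members, 1 clone stood apart from the other 3 by a gap past Dixon's 95% critical value. At this level chance alone does so in about 1 in 20 independent groups. The 62 groups share the same 8 clones, and the share of all records that pass this rule was not computed. Ctrl 34 was the clone in 4 of the 6. It had 14707 normalized counts of Nanog, against 7436 to 8664 in the other Ctrl clones, and 5819 of Klf4, against 3811 to 4120. It had 10861 normalized counts of Fbxo15, against 6726 to 7432, and 2164 of Sall4, against 2530 to 2565. Ctrl 33 had 2124 normalized counts of Nr0b1, against 1437 to 1465 in the other Ctrl clones. TKO 47 had 1870 normalized counts of Dppa3, against 1402 to 1478 in the other TKO clones.

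The genotype change of Sall1 differed between the series by 1.13 on the log2 scale (adjusted p = 0.0197 from edgeR), being near 0 in the forties and negative in the thirties.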

How the results depend on the processing

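The 1 member called between the genotypes was Pou5f1 under TMM scaling, no filter, DESeq2, limma-voom and counts summed per symbol, and leaving out 1 clone gave 0 to 1 calls. Fitted alone, which was chosen after seeing the data, the forties gave 2 calls and the thirties 4, and the log2 change of Pou5f1 in the forties was -0.43 (adjusted p = 0.0628 from edgeR). Leaving out 1 clone gave log2 changes of Pou5f1 from -0.67 to -0.56. With the series in the model the 2 calls became 4 without the filter, 4 with DESeq2, and 0 to 5 when 1 clone was left out. The 5 calls between the series became 3 to 8 when 1 clone was left out. The 1 call for a differing genotype change became 3 without the filter, 4 with DESeq2, 2 with limma-voom, and 0 to 8 when 1 clone was left out. Over all records DESeq2 called 513 between the genotypes, edgeR 39. No change of a member that edgeR called with all 8 clones for genotype, series or their interaction took the opposite sign under any of these. The genotype change of 15 of the 31 tested members took both signs, among them Nanog (-0.16 to 0.28), Sox2 (-0.05 to 0.29) and Klf5. These ranges include the forties and thirties fitted alone, where Cdh1, Tfcp2l1 and Sall1, also among the 15, were called. With the series in the model, where those fits do not enter, 6 members took both signs, Nanog among them but not Sox2 or Klf5. The causes were not tested. No paired analysis was possible because no clone number occurs in both genotypes. With 2 clones per genotype and series, changes within a series rest on few clones, and Ctrl 33 had the fewest counts. Depth limits the lowly read members Fut4, Tbx3, Nr5a2 and Esrrb.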
